A study of Homo sapiens with 12 samples.

Results

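The collagen genes were described in total RNA of the human cell line MDA-MB-231, derived from a triple-negative, basal-like breast cancer, in which CRISPR guide RNAs targeted UFM1 or UFL1. Collagen genes were taken as the protein-coding genes whose symbol is COL, a number, A and a number, which gave 44 of the 58735 genes in the count table. UFM1 is a ubiquitin-like protein attached to other proteins chiefly at the endoplasmic reticulum, and UFL1 is its ligase. The labels give 3 libraries with sgUFM1, 3 with sgUFL1, 3 with a control guide paired with sgUFM1 and 3 with a control guide paired with sgUFL1. The labels give no clone, culture or time in culture, and the series' design text speaks of knockout cells while its title speaks of knockdown.

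Collagens are proteins of 3 chains wound into a triple helix, built in the endoplasmic reticulum, where prolines and lysines are modified before the large trimers leave by enlarged transport vesicles. Fibrillar collagens form the banded fibres of connective tissue, network collagens form the sheets of basement membranes, anchoring fibrils fasten those sheets to the tissue beneath, and transmembrane collagens stay on the cell surface. FACITs (fibril-associated collagens with interrupted triple helices) sit on fibrils, beaded filaments run between fibrils and cells, and multiplexins carry sugar chains in basement membrane zones. Breast cancer cells meet such matrix as a barrier and as a track for migration, and they make part of it themselves.

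The 2 deposited tables did not name all libraries alike. Each FPKM column was proportional to exactly 1 count column, which had the same name for 6 libraries and another name for 6. The libraries that the count table calls sgUFL1 are the controls for sgUFM1 in the FPKM table and are termed set 1 here. Those that the count table calls controls for sgUFM1 are sgUFL1 in the FPKM table and are termed set 2. The sgUFM1 libraries and the controls for sgUFL1 kept their names, so their comparison leads each paragraph, although by title these controls belong to the other guide and there the guide cannot be told apart from culture or from library preparation.

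Levels are given as CPM, counts scaled to library size with TMM factors. UFM1 stood at 37.1, 39.6 and 39.3 CPM in the sgUFM1 libraries, 49.4, 57.001 and 53.95 CPM in set 1, 51.3, 54.7 and 55.3 CPM in set 2 and 59.7, 65.7 and 71.2 CPM in the controls for sgUFL1. UFL1 stood at 20.5, 25.02 and 23.6 CPM in the sgUFM1 libraries, 16.7, 19.3 and 18.03 CPM in set 1, 12.7, 11.4 and 13.2 CPM in set 2 and 19.8, 24.5 and 30.3 CPM in the controls for sgUFL1. UFM1 was thus lowest in the libraries with its guide, and UFL1 was lowest in set 2, the libraries that only the FPKM table names sgUFL1. Totals were 15342793 to 18033331 counts per library, of which collagen genes took 0.0822% to 0.157%. In correlations of each library's deviations from the mean of all 12, set 1 replicate 1 was most like controls for sgUFL1 replicate 1 (r = 0.33) and had a mean r of -0.19 with its own set. Controls for sgUFL1 replicate 2 had a mean r of 0.08 with its own set, against 0.25 and 0.35 for the other two controls. Both libraries stand apart, so counts of collagen genes called, and the differences of collagen genes called where these libraries enter, are also given without them. Weighted by counts, transcripts had a mean GC content of 49.1% to 50.3% in the sgUFM1 libraries and both sets, and 47.6% to 48.7% in the controls for sgUFL1. No label says that the libraries within a group are separate cultures, so p-values reflect library-to-library spread that may be technical only.

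Promoter windows (250 bases before to 50 after the start, RefSeq, GRCh38.p14) were found for 32 of the 44 collagen genes. Shown are COL7A1 and COL6A3, the genes with the largest differences called higher in sgUFM1 relative to the controls for sgUFL1, COL12A1, the gene with the largest difference called lower there, and COL4A2, whose window shares 226 bases with that of its neighbour COL4A1 on the other strand. Capitals mark matches on either strand to the TATA box letters TATAAA, the CCAAT box, the GC box letters GGGCGG or the AP-1 letters TGANTCA, and no matches overlap in these windows. The windows are chr3:48595280-48595579 (minus strand), chr2:237414115-237414414 (minus strand), chr6:75206004-75206303 (minus strand) and chr13:110307034-110307333 (plus strand).
COL7A1: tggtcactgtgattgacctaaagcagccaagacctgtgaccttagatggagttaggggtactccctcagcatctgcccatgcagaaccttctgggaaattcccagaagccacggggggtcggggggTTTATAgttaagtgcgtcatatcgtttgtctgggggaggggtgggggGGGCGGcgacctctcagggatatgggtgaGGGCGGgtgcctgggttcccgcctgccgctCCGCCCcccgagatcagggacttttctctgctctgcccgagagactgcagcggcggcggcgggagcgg
COL6A3: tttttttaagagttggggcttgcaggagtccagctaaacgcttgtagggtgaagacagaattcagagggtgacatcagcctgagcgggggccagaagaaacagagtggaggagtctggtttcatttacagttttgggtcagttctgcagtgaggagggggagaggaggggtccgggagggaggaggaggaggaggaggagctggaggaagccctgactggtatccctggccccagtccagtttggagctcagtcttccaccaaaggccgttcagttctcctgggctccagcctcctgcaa
COL12A1: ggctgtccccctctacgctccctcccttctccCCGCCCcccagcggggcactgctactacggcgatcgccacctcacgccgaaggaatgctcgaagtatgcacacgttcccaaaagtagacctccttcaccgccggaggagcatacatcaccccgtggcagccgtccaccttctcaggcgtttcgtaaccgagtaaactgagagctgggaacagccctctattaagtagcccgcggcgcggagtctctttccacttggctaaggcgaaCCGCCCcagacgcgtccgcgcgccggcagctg
COL4A2: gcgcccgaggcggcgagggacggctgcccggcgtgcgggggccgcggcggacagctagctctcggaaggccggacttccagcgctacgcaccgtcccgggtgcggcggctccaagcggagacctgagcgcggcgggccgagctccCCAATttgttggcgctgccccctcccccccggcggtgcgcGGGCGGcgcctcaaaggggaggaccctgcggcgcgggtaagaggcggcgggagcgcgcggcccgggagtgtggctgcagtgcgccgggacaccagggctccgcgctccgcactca
The 32 collagen genes found had 44 windows, as some genes have more than 1, so the shares below are of windows and not of genes. TATAAA was in 8 of the 44 collagen windows (18.2%), against 11.5% of all 35116 RefSeq promoter windows. CCAAT was in 14 (31.8%), against 34.6%, GGGCGG in 24 (54.5%), against 45.0%, and TGANTCA in 1 (2.27%), against 7.71%. COL7A1 holds a TATAAA match and GGGCGG matches, COL12A1 GGGCGG matches alone, and COL6A3 none of the motifs. The window of COL6A3 has a GC content of 56.3% and those of COL7A1, COL12A1 and COL4A2 62.3%, 63.3% and 77.7%, beside a median of 63.7% for collagen windows and 58.7% for all windows.

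Of the 44 collagen genes, 26 had counts in all 12 libraries and 2 (COL2A1, COL5A3) had none in any. After the filter on low counts, 25 were tested in at least 1 of the 5 comparisons of groups and 23 in all of them, and the 19 that the filter removed from all of them had at most 61 counts over the 12 libraries together. Levels between genes are compared as CPM per kilobase of gene length. On that scale the transmembrane collagen COL13A1 was highest, at a mean of 47.2 over the 12 libraries, followed by the beaded-filament chain COL6A1 at 33.4. COL8A1, COL6A2, COL7A1 and COL4A2 stood at 13.2, 12.1, 11.7 and 10.05. These 6 genes made up 82.9% of the summed collagen level. The fibrillar chains of scar and bone were low: COL1A1 averaged 1.08, COL3A1 0.126, and COL1A2, the partner chain of COL1A1 in type I collagen, had 2 counts in all libraries together beside 2070 for COL1A1. Neighbours in this order from COL8A1 to COL4A2 differed by less than their spread over the 12 libraries (coefficients of variation of 20.5% to 67.7%).

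**Figure D1:**
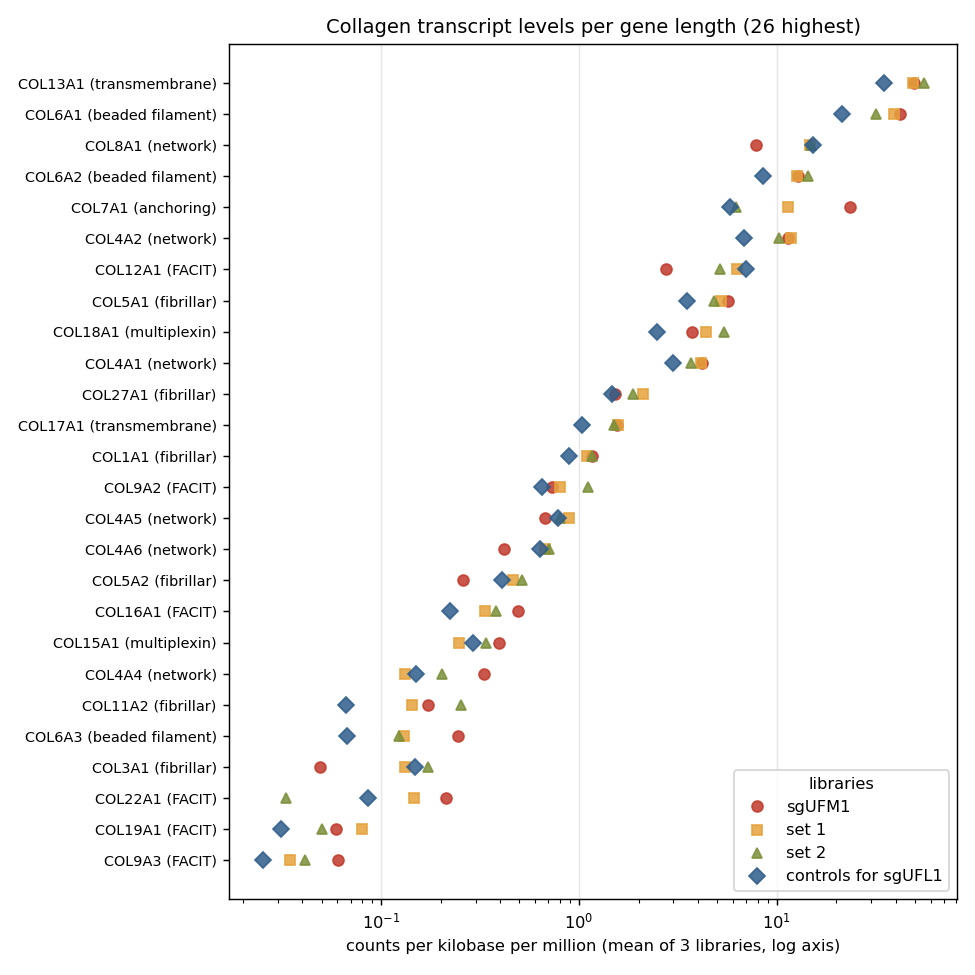
Mean level of the 26 highest collagen genes in CPM per kilobase (log axis, mean of 3 libraries) in the sgUFM1 libraries (red circles), set 1 (orange squares), set 2 (green triangles) and the controls for sgUFL1 (blue diamonds). COL13A1 stands highest in every group, COL7A1 is highest in the sgUFM1 libraries, and COL8A1 and COL12A1 are lowest there.

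Levels summed by class are in CPM per kilobase (mean ± SD, n = 3). The beaded filaments reached 54.8 ± 4.53 in the sgUFM1 libraries, 51.8 ± 13.7 in set 1, 46.2 ± 1.46 in set 2 and 29.97 ± 10.1 in the controls for sgUFL1. The transmembrane class reached 50.8 ± 5.29 in the sgUFM1 libraries, 50.5 ± 3.17 in set 1, 57.1 ± 2.23 in set 2 and 36.03 ± 5.24 in the controls for sgUFL1. Both sums were lowest in the controls for sgUFL1. The network class reached 24.9 ± 1.79 in the sgUFM1 libraries, 32.4 ± 2.59 in set 1, 30.6 ± 1.003 in set 2 and 26.7 ± 2.34 in the controls for sgUFL1. COL7A1, the sole anchoring collagen, reached 23.5 ± 3.29 in the sgUFM1 libraries, 11.4 ± 4.43 in set 1, 6.202 ± 0.44 in set 2 and 5.81 ± 3.13 in the controls for sgUFL1. The fibrillar class stood at 8.82 ± 0.956 in the sgUFM1 libraries, 9.18 ± 0.694 in set 1, 8.84 ± 0.361 in set 2 and 6.53 ± 0.858 in the controls for sgUFL1. The FACITs stood at 4.33 ± 0.245 in the sgUFM1 libraries, 7.69 ± 1.003 in set 1, 6.797 ± 0.631 in set 2 and 8.02 ± 1.27 in the controls for sgUFL1, lowest in sgUFM1. The multiplexins stood at 4.103 ± 0.245 in the sgUFM1 libraries, 4.63 ± 0.429 in set 1, 5.77 ± 0.321 in set 2 and 2.75 ± 0.611 in the controls for sgUFL1. The class sums follow 1 or 2 genes each: COL6A1 and COL6A2 the beaded filaments, COL13A1 the transmembrane class and COL12A1 the FACITs.

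Between the sgUFM1 libraries and the controls for sgUFL1, collagen genes moved both ways. COL7A1 and the type VI chains were higher in sgUFM1, and COL12A1 and the network chain COL8A1 were lower. Of the 24 collagen genes tested, 10 were called higher (adjusted p below 0.05, edgeR's quasi-likelihood test), beside 5.57% of all 15035 genes tested, and 2 were called lower, beside 4.43%. The median log2 difference of the collagen genes tested was 0.53, beside -0.00 over all genes tested, and 0.28 with offsets (GC content, gene length). With those offsets, 4 were called higher, beside 4.33% of all genes tested, and 3 lower, beside 4.02%. Without controls for sgUFL1 replicate 2, 13 of 25 were called higher, beside 14.2%, and 2 lower, beside 12.9%. The number higher was 4 without controls for sgUFL1 replicate 1, beside 2.4%, and 7 without their replicate 3, beside 3.51%. It was 1, 3 and 3 without sgUFM1 replicates 1, 2 and 3, beside 1.07%, 1.49% and 1.86% of all genes, so fewer genes of any kind were called without those libraries. COL22A1 (2.91 (adjusted p = 0.00341)), COL4A1 (0.68 (adjusted p = 0.00117)) and COL17A1 (0.68 (adjusted p = 0.0165)) were the 3 collagen genes called higher without controls for sgUFL1 replicate 2 and not with it.

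Relative to set 2, the controls of sgUFM1 by the count table's names, 6 of 24 collagen genes were called higher, beside 19.3% of 15083 genes, and 8 lower, beside 18.5%. Offsets gave 10 higher, beside 16.2%, and 6 lower, beside 17%. Relative to set 1, its controls by the FPKM table's names, 2 of 25 were called higher, beside 4.57% of 14977 genes, and 3 lower, beside 5.15%. Offsets gave 2 higher, beside 4.16%, and 2 lower, beside 3.55%. Without set 1 replicate 1 there were 3 higher of 26, beside 12%, and 7 lower, beside 14.6%. The collagen medians in these comparisons were -0.08 and 0.01, beside 0.01 and -0.01 over all genes. All 3 comparisons use the same sgUFM1 libraries, so their values stand side by side and are not independent.

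**Figure D2:**
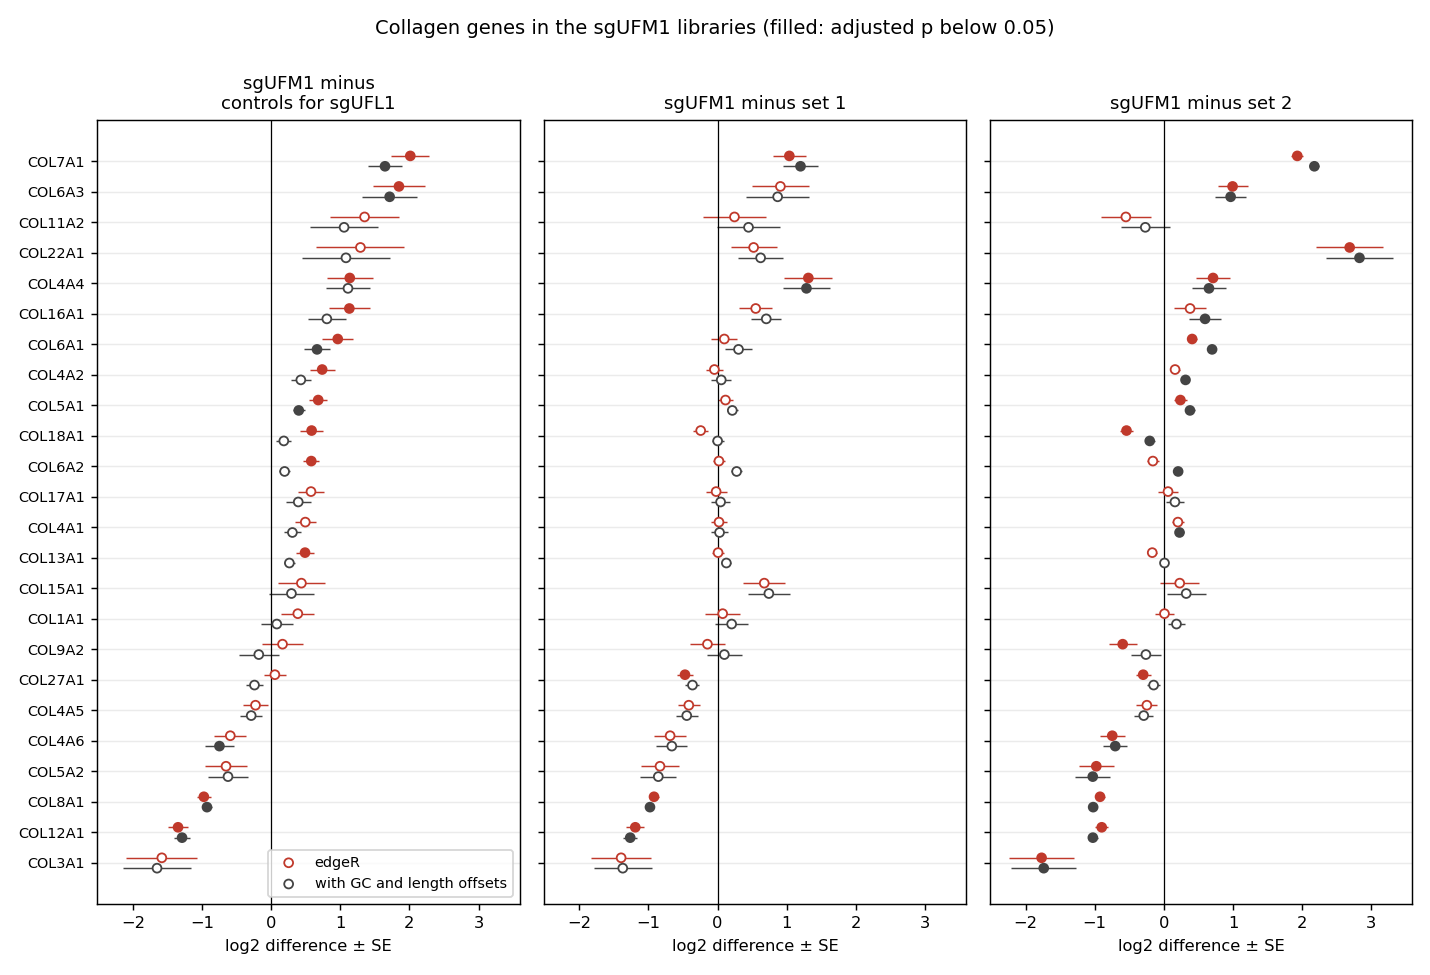
Log2 differences ± SE of the 24 collagen genes tested between sgUFM1 and the controls for sgUFL1 (left), set 1 (middle) and set 2 (right), from edgeR (red) and from edgeR with offsets (GC content, gene length) (dark grey). Filled points have an adjusted p below 0.05. COL7A1 is filled on the right side of 0 and COL8A1 and COL12A1 on the left side of 0 in every panel, with and without offsets.

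COL7A1 (ENSG00000114270, chr3:48564073-48595267, minus strand, GRCh38) encodes the chain of type VII collagen, the anchoring fibril protein of epithelial basement membranes. It had 300.4, 251 and 229 CPM in the sgUFM1 libraries, 70.5, 160.4 and 149 CPM in set 1, 71.8, 71.2 and 63.05 CPM in set 2, and 50.8, 104 and 38.5 CPM in the controls for sgUFL1. Every sgUFM1 library lay above all 9 others, whose groups overlapped one another, and set 1 replicate 1 and controls for sgUFL1 replicate 2 each lay far from the other two of their group. COL7A1 was higher in sgUFM1 with a log2 difference of 2.01 ± 0.27 SE at adjusted p = 0.00163 relative to the controls for sgUFL1, 1.93 ± 0.09 SE at adjusted p = 2.31e-12 relative to set 2 and 1.04 ± 0.23 SE at adjusted p = 0.0203 relative to set 1. The first was 1.65 with offsets and 2.54 without controls for sgUFL1 replicate 2, and the last was 0.75 without set 1 replicate 1. The calls relative to the controls for sgUFL1 and to set 2 held under all 13 alternatives run for each (1.65 to 2.54 and 1.82 to 2.18). That relative to set 1 ended without any 1 of the sgUFM1 libraries and in 1 model over all 12 libraries (0.75 to 1.29, adjusted p up to 0.0998). COL7A1 overlaps the microRNA gene MIR711 on the same strand. In bulk RNA, fewer cells that express a gene and less RNA per cell cannot be told apart, here or in the results that follow.

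**Figure D3:**
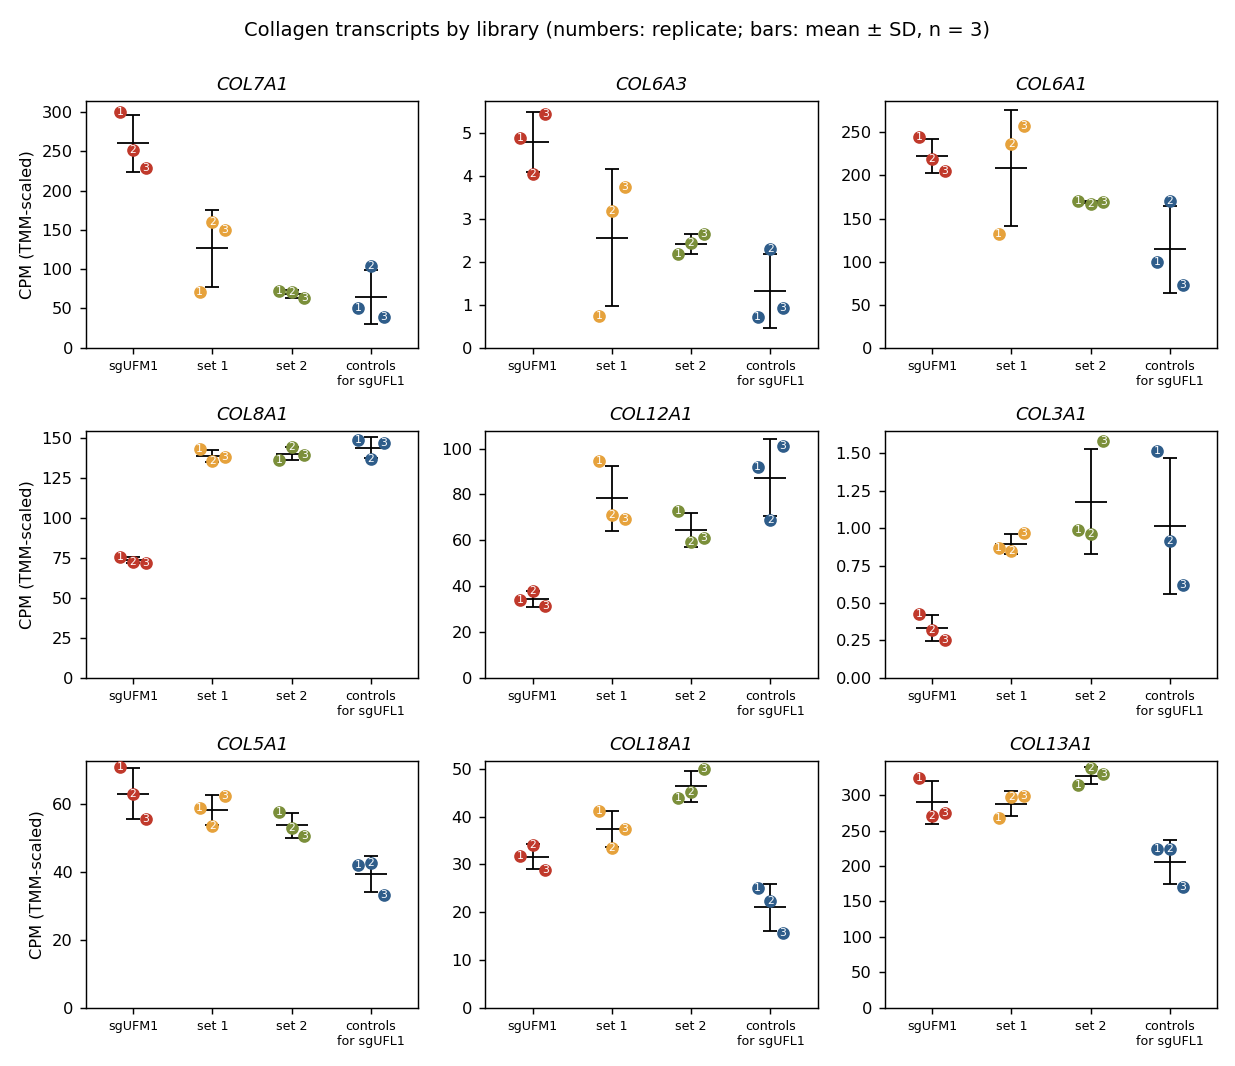
CPM of 9 collagen genes in each library (points carry the replicate number, bars are mean ± SD, n = 3) in the sgUFM1 libraries, set 1, set 2 and the controls for sgUFL1. The COL7A1 points of sgUFM1 (229 to 300.4 CPM) lie above all others and its COL8A1 points (72.1 to 75.6 CPM) below all others, and set 1 replicate 1 and controls for sgUFL1 replicate 2 lie apart from the rest of their groups in COL7A1, COL6A1 and COL6A3.

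Among network collagens, COL8A1 (ENSG00000144810, chr3:99638475-99799226, plus strand) encodes a short chain that forms lattices under endothelia. It had 75.6, 72.8 and 72.1 CPM in the sgUFM1 libraries, 143, 136 and 138 CPM in set 1, 137, 145 and 139.6 CPM in set 2, and 149, 137 and 147 CPM in the controls for sgUFL1. The sgUFM1 libraries held about the same value throughout and lay below the 9 others, which stood within 136 to 149 CPM. Its log2 difference was -0.97 ± 0.10 SE at adjusted p = 0.000274 relative to the controls for sgUFL1, -0.92 ± 0.07 SE at adjusted p = 3.52e-09 relative to set 2 and -0.92 ± 0.07 SE at adjusted p = 5.89e-05 relative to set 1. All 3 calls held under the 13 alternatives run for each, with values from -1.02 to -0.90. The first was -1.01 without controls for sgUFL1 replicate 2 and the last -0.90 without set 1 replicate 1. No annotated gene overlaps COL8A1.

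Type IV collagen is the sheet of basement membranes, and its 6 chain genes lie in head-to-head pairs. COL4A2 (ENSG00000134871, chr13:110305812-110513209, plus strand) had 246, 212 and 201 CPM in the sgUFM1 libraries, 181, 244 and 255 CPM in set 1, 185, 213 and 195 CPM in set 2, and 135, 169 and 90.6 CPM in the controls for sgUFL1, and COL4A1 (ENSG00000187498, chr13:110148963-110307233, minus strand) had 67.6, 60.9 and 57.1 CPM in the sgUFM1 libraries, 49.9, 67.1 and 65.8 CPM in set 1, 53.7, 52.6 and 55.96 CPM in set 2, and 41.4, 54.2 and 35.8 CPM in the controls for sgUFL1. Both were lowest in controls for sgUFL1 replicate 3, and controls replicate 2 lay close to set 1 replicate 1. COL4A2 was higher in sgUFM1 than in the controls for sgUFL1, with a log2 difference of 0.74 ± 0.18 SE at adjusted p = 0.0239, and COL4A1 had 0.49 ± 0.15 SE at adjusted p = 0.0514 there and was called with RLE scaling, DESeq2 and no filter on low counts. The call ended with offsets (0.43) and without controls for sgUFL1 replicate 1 or any 1 sgUFM1 library (0.43 to 0.96 over the alternatives, adjusted p up to 0.113), and it was 0.96 without controls for sgUFL1 replicate 2. The ratio of COL4A2 to COL4A1 counts per kilobase was 2.78, 2.66 and 2.69 in the sgUFM1 libraries, 2.77, 2.78 and 2.95 in set 1, 2.63, 3.09 and 2.66 in set 2 and 2.49, 2.38 and 1.93 in the controls for sgUFL1. The gene models overlap at their starts, and COL4A2 overlaps the antisense genes COL4A2-AS1 and COL4A2-AS2. Counting strand is not given in the sources used here, so reads of overlapping genes cannot be told apart.

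COL4A4 (ENSG00000081052, chr2:227002711-227164453, minus strand), a chain of the kidney and eye form of type IV collagen, had 3.49, 3.67 and 2.85 CPM in the sgUFM1 libraries, 1.79, 0.653 and 1.55 CPM in set 1, 1.91, 2.38 and 1.84 CPM in set 2, and 1.57, 0.913 and 2.05 CPM in the controls for sgUFL1. The sgUFM1 libraries lay above all others. COL4A4 was higher in sgUFM1 by a log2 difference of 1.14 ± 0.33 SE at adjusted p = 0.0463 relative to the controls for sgUFL1, 0.71 ± 0.25 SE at adjusted p = 0.0271 relative to set 2 and 1.31 ± 0.35 SE at adjusted p = 0.0385 relative to set 1. All 3 calls ended without sgUFM1 replicate 1 or 2, the first and last also without sgUFM1 replicate 3, and the values over the alternatives were 0.88 to 1.42, 0.64 to 0.83 and 0.99 to 1.59 with adjusted p up to 0.172. The first also ended with offsets (1.11) and without controls for sgUFL1 replicate 1, the second with DESeq2, in the model over 12 libraries and without set 2 replicate 1 or 3, and the last without set 1 replicate 2 or 3. Relative to the controls for sgUFL1 it was 0.88 (adjusted p = 0.0421) without their replicate 2, and relative to set 1 1.59 (adjusted p = 0.00162) without set 1 replicate 1. Its neighbour COL4A3 starts 112 bases away on the other strand and had 61 counts in all libraries together and did not pass the filter on low counts.

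COL4A6 (ENSG00000197565, chrX:108155607-108439497, minus strand) encodes a chain found in smooth muscle and skin basement membranes. It had 4.22, 3.54 and 3.93 CPM in the sgUFM1 libraries, 4.81, 6.01 and 8.01 CPM in set 1, 7.22, 6.01 and 6.52 CPM in set 2, and 5.93, 6.94 and 4.71 CPM in the controls for sgUFL1. The sgUFM1 values lay below all others. The log2 difference of COL4A6 was -0.75 ± 0.18 SE at adjusted p = 0.00258 relative to set 2, where the call held under the 13 alternatives (-0.81 to -0.68). Relative to the controls for sgUFL1 it was called lower with offsets (-0.75) and not without them. Its neighbour COL4A5, which starts 347 bases away, had 7.89, 7.78 and 8.18 CPM in the sgUFM1 libraries, 8.89, 11.9 and 11.05 CPM in set 1, 10.8, 9.69 and 7.91 CPM in set 2, and 9.63, 10.3 and 7.94 CPM in the controls for sgUFL1 and was called in none of the comparisons over all libraries. Relative to set 1 without its replicate 1, COL4A6 had -0.85 (adjusted p = 0.00343) and COL4A5 -0.53 (adjusted p = 0.0108). The ratio of COL4A5 to COL4A6 per kilobase was 1.46, 1.72 and 1.63 in the sgUFM1 libraries, 1.44, 1.55 and 1.08 in set 1, 1.17, 1.26 and 0.949 in set 2 and 1.27, 1.16 and 1.32 in the controls for sgUFL1.

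Among fibrillar collagens, COL5A1 (ENSG00000130635, chr9:134641774-134844843, plus strand) encodes the type V chain that starts and limits fibril growth. It had 70.9, 62.9 and 55.8 CPM in the sgUFM1 libraries, 58.9, 53.5 and 62.4 CPM in set 1, 57.9, 52.9 and 50.6 CPM in set 2, and 42.01, 42.8 and 33.2 CPM in the controls for sgUFL1. All controls for sgUFL1 lay below the 9 other libraries, which overlapped. COL5A1 was higher in sgUFM1 by a log2 difference of 0.68 ± 0.13 SE at adjusted p = 0.00951 relative to the controls for sgUFL1 and 0.24 ± 0.09 SE at adjusted p = 0.0417 relative to set 2. The first was 0.40 with offsets, still called, and 0.75 without controls for sgUFL1 replicate 2, and its call ended without sgUFM1 replicate 1 (0.60, adjusted p up to 0.0698). The second ended with RLE scaling, with DESeq2, in the model over 12 libraries and without set 2 replicate 2 or 3 or sgUFM1 replicate 1 or 2 (0.15 to 0.38, adjusted p up to 0.228). COL5A1 overlaps the antisense gene COL5A1-AS1, which had 0 to 6 counts per library.

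COL5A2 (ENSG00000204262, chr2:189031896-189225312, minus strand), the usual partner chain of COL5A1, was far scarcer, with 1.77, 2.38 and 1.65 CPM in the sgUFM1 libraries, 3.58, 2.87 and 3.88 CPM in set 1, 3.45, 4.87 and 3.17 CPM in set 2, and 3.27, 2.31 and 3.54 CPM in the controls for sgUFL1. Its sgUFM1 values lay below those of both sets, and 1 overlapped the controls for sgUFL1. COL5A2 was lower in sgUFM1 relative to set 2, with a log2 difference of -0.98 ± 0.26 SE at adjusted p = 0.00501, a call that held under the 13 alternatives (-1.15 to -0.77). Relative to set 1 it was called only without set 1 replicate 1 (-0.80 (adjusted p = 0.0448)). The ratio of COL5A1 to COL5A2 per kilobase was 26.6, 17.6 and 22.5 in the sgUFM1 libraries, 10.97, 12.4 and 10.7 in set 1, 11.2, 7.23 and 10.7 in set 2 and 8.56, 12.3 and 6.25 in the controls for sgUFL1. The 3 sgUFM1 ratios lay above the 9 others.

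COL3A1 (ENSG00000168542, chr2:188974320-189012746, plus strand), the chain of type III collagen of skin and vessels, had 0.428, 0.322 and 0.254 CPM in the sgUFM1 libraries, 0.864, 0.849 and 0.969 CPM in set 1, 0.984, 0.963 and 1.58 CPM in set 2, and 1.51, 0.913 and 0.6202 CPM in the controls for sgUFL1. The sgUFM1 libraries lay below all others at levels of a few counts per library. COL3A1 was lower relative to set 2, with a log2 difference of -1.77 ± 0.47 SE at adjusted p = 0.0054, which held under the 13 alternatives (-1.98 to -1.51). Over all 3 libraries a group, edgeR gave -1.58 at adjusted p = 0.0676 relative to the controls for sgUFL1. Relative to set 1 it gave -1.39 at adjusted p = 0.0664, so neither passed the threshold in these fits.

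COL27A1 (ENSG00000196739, chr9:114155560-114312511, plus strand), a fibrillar chain of cartilage, had 24.2, 20.01 and 19.5 CPM in the sgUFM1 libraries, 28.4, 30.4 and 29.6 CPM in set 1, 29.4, 24.99 and 24.5 CPM in set 2, and 23.9, 21.4 and 16.003 CPM in the controls for sgUFL1. The sgUFM1 libraries lay below both sets and overlapped the controls for sgUFL1. It was lower in sgUFM1, with a log2 difference of -0.30 ± 0.11 SE at adjusted p = 0.0355 relative to set 2 and -0.47 ± 0.11 SE at adjusted p = 0.025 relative to set 1. Both calls ended with offsets (-0.15 and -0.36), in the model over 12 libraries and without sgUFM1 replicate 2 or 3, the first also with DESeq2 and without set 2 replicate 1 and the second without set 1 replicate 2 or 3 (adjusted p up to 0.226 and 0.143). The second was -0.50 without set 1 replicate 1. COL1A1, the main chain of type I collagen, had 13.3, 9.84 and 10.96 CPM in the sgUFM1 libraries, 16.1, 8.16 and 8.08 CPM in set 1, 10.6, 11.5 and 12.2 CPM in set 2, and 11.4, 5.54 and 9.18 CPM in the controls for sgUFL1 and was called in no comparison over all libraries, while relative to set 1 without its replicate 1 it had 0.49 (adjusted p = 0.0279).

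The beaded-filament chains COL6A1 (ENSG00000142156, chr21:45981737-46005050, plus strand), COL6A2 (ENSG00000142173, chr21:46098097-46132849, plus strand) and COL6A3 (ENSG00000163359, chr2:237324003-237414375, minus strand) assemble into the type VI microfibrils around cells. COL6A1 had 244, 219.5 and 206 CPM in the sgUFM1 libraries, 132, 237 and 257 CPM in set 1, 170.4, 167 and 169.5 CPM in set 2, and 99.5, 169.9 and 73.004 CPM in the controls for sgUFL1. All sgUFM1 libraries lay above set 2 and the controls for sgUFL1, with controls replicate 2 at the level of set 2, and they overlapped set 1. COL6A1 was higher in sgUFM1 by a log2 difference of 0.96 ± 0.23 SE at adjusted p = 0.021 relative to the controls for sgUFL1 and 0.41 ± 0.07 SE at adjusted p = 0.000108 relative to set 2. The first was 0.66 with offsets, still called, and 1.37 without controls for sgUFL1 replicate 2. It ended with DESeq2 and without controls for sgUFL1 replicate 1 or any 1 sgUFM1 library (0.66 to 1.37 over the alternatives, adjusted p up to 0.0902), and the second ended in the model over 12 libraries.

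COL6A2 had 73.6, 68.4 and 64.6 CPM in the sgUFM1 libraries, 62.5, 65.8 and 75.2 CPM in set 1, 67.2, 84.8 and 80.3 CPM in set 2, and 47.7, 49.2 and 40.9 CPM in the controls for sgUFL1. The controls for sgUFL1 lay below all other libraries, which overlapped. Relative to those controls the log2 difference in sgUFM1 was 0.58 ± 0.12 SE at adjusted p = 0.00985, and the call ended with offsets (0.19) and without sgUFM1 replicate 1 or 2 (adjusted p up to 0.188). It was 0.63 without controls for sgUFL1 replicate 2.

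COL6A3, whose large chain completes the type VI trimer, was scarce, with 4.896, 4.05 and 5.45 CPM in the sgUFM1 libraries, 0.741, 3.199 and 3.75 CPM in set 1, 2.19, 2.44 and 2.66 CPM in set 2, and 0.726, 2.31 and 0.9304 CPM in the controls for sgUFL1. Every sgUFM1 library lay above every other. Set 1 replicate 1 lay with controls for sgUFL1 replicates 1 and 3, and controls for sgUFL1 replicate 2 with set 2. COL6A3 was higher in sgUFM1 by a log2 difference of 1.85 ± 0.38 SE at adjusted p = 0.0116 relative to the controls for sgUFL1 and 0.99 ± 0.22 SE at adjusted p = 0.00124 relative to set 2. The first was 1.71 with offsets, still called, and 2.52 without controls for sgUFL1 replicate 2, and it ended without controls for sgUFL1 replicate 1 or sgUFM1 replicate 1 or 3 (adjusted p up to 0.0539). The second ended in the model over 12 libraries. The ratio of COL6A1 to COL6A2 per kilobase was 3.35, 3.24 and 3.21 in the sgUFM1 libraries, 2.12, 3.63 and 3.44 in set 1, 2.56, 1.99 and 2.13 in set 2 and 2.102, 3.48 and 1.8003 in the controls for sgUFL1. In this ratio too, set 1 replicate 1 and controls for sgUFL1 replicate 2 stood apart from their groups.

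Among FACITs, COL12A1 (ENSG00000111799, chr6:75084326-75206051, minus strand) encodes type XII collagen, which bridges fibrils in tendon, skin and tumour stroma. It had 33.7, 38.02 and 31.4 CPM in the sgUFM1 libraries, 94.7, 70.97 and 69.4 CPM in set 1, 72.9, 59.3 and 61.1 CPM in set 2, and 91.96, 68.9 and 101 CPM in the controls for sgUFL1. The sgUFM1 libraries lay below all 9 others. Its log2 difference was -1.35 ± 0.14 SE at adjusted p = 0.000333 relative to the controls for sgUFL1, -0.90 ± 0.10 SE at adjusted p = 6.38e-07 relative to set 2 and -1.19 ± 0.13 SE at adjusted p = 0.000874 relative to set 1. These calls held under all 13 alternatives run for each, and the first was -1.29 with offsets and -1.49 without controls for sgUFL1 replicate 2. The last was -1.03 without set 1 replicate 1. No annotated gene overlaps COL12A1.

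COL16A1 (ENSG00000084636, chr1:31652247-31704319, minus strand), a FACIT of skin and cartilage, had 5.26, 4.82 and 3.61 CPM in the sgUFM1 libraries, 2.72, 3.13 and 3.49 CPM in set 1, 3.72, 4.53 and 2.28 CPM in set 2, and 1.88, 2.86 and 1.49 CPM in the controls for sgUFL1. The sgUFM1 libraries lay above set 1 and the controls for sgUFL1 and overlapped set 2. Its log2 difference relative to the controls for sgUFL1 was 1.13 ± 0.30 SE at adjusted p = 0.034. The call ended with offsets (0.81), without controls for sgUFL1 replicate 1 or 3 and on removal of any 1 sgUFM1 library (adjusted p up to 0.161), and it was 1.43 without controls for sgUFL1 replicate 2. COL22A1 (ENSG00000169436, chr8:138588235-138914006, minus strand), which sits at muscle-tendon junctions, had 1.59, 1.74 and 1.65 CPM in the sgUFM1 libraries, 0.864, 1.11 and 1.49 CPM in set 1, 0.273, 0.0567 and 0.443 CPM in set 2, and 0.363, 1.58 and 0.06202 CPM in the controls for sgUFL1. It was higher in sgUFM1 relative to set 2, with a log2 difference of 2.69 ± 0.49 SE at adjusted p = 0.000237 that held under the 13 alternatives (2.21 to 3.26), while controls for sgUFL1 replicate 2 lay just below the sgUFM1 range. Relative to those controls it was called only once that library was left out (2.91). COL9A2 (ENSG00000049089, chr1:40300487-40317813, minus strand), a cartilage FACIT, had 2.82, 2.83 and 3.55 CPM in the sgUFM1 libraries, 2.84, 3.13 and 4.1998 CPM in set 1, 4.81, 4.36 and 4.81 CPM in set 2, and 3.63, 2.07 and 2.48 CPM in the controls for sgUFL1. It was lower relative to set 2, with a log2 difference of -0.60 ± 0.20 SE at adjusted p = 0.0266, and that call ended with offsets (-0.26), DESeq2, the model over 12 libraries, and without set 2 replicate 3 or sgUFM1 replicate 1 or 2 (adjusted p up to 0.378).

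The transmembrane collagen COL13A1 (ENSG00000197467, chr10:69801867-69964275, plus strand), a cell-surface protein at adhesions and neuromuscular junctions, had 325, 270.0 and 275 CPM in the sgUFM1 libraries, 268, 297 and 299 CPM in set 1, 315, 339 and 329 CPM in set 2, and 224, 224 and 169.9 CPM in the controls for sgUFL1. The controls for sgUFL1 lay below all other libraries. COL13A1 was higher in sgUFM1 relative to them by a log2 difference of 0.49 ± 0.13 SE at adjusted p = 0.0328. The call ended with offsets (0.26), without controls for sgUFL1 replicate 1 or 3 and on removal of any 1 sgUFM1 library (adjusted p up to 0.179), and it was 0.55 without controls for sgUFL1 replicate 2. COL17A1, the hemidesmosomal transmembrane collagen, had 11.8, 9.97 and 11.1 CPM in the sgUFM1 libraries, 9.505, 12.7 and 11.1 CPM in set 1, 9.13, 12.3 and 10.3 CPM in set 2, and 5.81, 8.28 and 7.88 CPM in the controls for sgUFL1 and was called in no comparison over all libraries.

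The multiplexin COL18A1 (ENSG00000182871, chr21:45405137-45513720, plus strand) encodes type XVIII collagen, the source of endostatin. It had 31.8, 34.1 and 28.9 CPM in the sgUFM1 libraries, 41.2, 33.5 and 37.5 CPM in set 1, 43.9, 45.05 and 49.9 CPM in set 2, and 25.1, 22.3 and 15.6 CPM in the controls for sgUFL1. The groups were ordered with set 2 highest and the controls for sgUFL1 lowest, and the sgUFM1 range overlapped that of set 1. COL18A1 in sgUFM1 was higher than in the controls for sgUFL1 by a log2 difference of 0.59 ± 0.17 SE at adjusted p = 0.0432 and lower than in set 2, with -0.54 ± 0.09 SE at adjusted p = 8.26e-05. The first call ended with offsets (0.18), without controls for sgUFL1 replicate 3 and on removal of any 1 sgUFM1 library (adjusted p up to 0.36), and it was 0.63 without controls for sgUFL1 replicate 2. The second was -0.20 with offsets, still called. COL18A1 overlaps SLC19A1 on the opposite strand over 20149 bases. COL15A1, the other multiplexin, had 1.48 to 3.42 CPM in all libraries and was called in no comparison.

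The 19 collagen genes that passed the filter on low counts in none of the 5 comparisons of groups include COL1A2, COL2A1, COL5A3, COL11A1 and COL24A1 of the fibrillar class and COL4A3, COL8A2 and COL10A1 of the network class. The others are COL6A5 and COL6A6 of the beaded filaments, COL9A1, COL9A3, COL14A1, COL20A1 and COL21A1 of the FACITs, COL23A1 and COL25A1 of the transmembrane class, and the unclassified COL26A1 and COL28A1. Their totals over 12 libraries were 0 to 61 counts. Without the filter, COL11A1 was lower in sgUFM1 relative to set 2, at -3.69 (adjusted p = 0.0293), and without set 2 replicate 1 COL4A3 passed the filter and was higher in the same comparison, at 2.50 (adjusted p = 0.0233). The others were called under none of the alternatives. COL19A1, with 91 counts in all, was tested among the comparisons of groups only relative to set 1 and was not called. By edgeR it was also tested in the difference between the guides' effects and not called (-1.10, adjusted p = 0.317).

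The effect of the UFL1 guide was read under both namings, since the tables differ on which libraries carry it. Under the count table's names (set 1 relative to the controls for sgUFL1) no collagen gene of 24 tested was called in either direction by edgeR, beside 1.08% of 14996 genes called higher and 0.02% lower. At an unadjusted p below 0.05 edgeR had 10 of the 24 higher and 0 lower, for which the share over all genes was not computed. DESeq2 called 6 of 39 higher, beside 4.18% of all genes, and 0 lower, beside 1.54%. In other settings edgeR also called collagen genes on the same libraries. Without the filter on low counts it called 9 of 39 higher, beside 5.09% of all genes, and 0 lower. In 1 model over 12 libraries it called 10 of 25 higher, beside 12.6%, and 0 lower. The collagen median was 0.52, beside -0.01 over all genes. Without set 1 replicate 1 and controls for sgUFL1 replicate 2, 13 of 24 were called higher, beside 18.6% of all genes, and 1 lower, beside 13.4%. COL7A1 then had a log2 difference of 1.82, COL6A1 of 1.54 and COL6A3 of 2.08. With offsets there were 0 in each direction, with 0 at an unadjusted p below 0.05, and 0 of all genes were called. COL7A1 and COL8A1 had differences of 0.99 ± 0.38 SE at adjusted p = 0.133 and -0.04 ± 0.10 SE at adjusted p = 0.818, and COL5A1 of 0.58 ± 0.13 SE at adjusted p = 0.0584, each over all 3 libraries a group.

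Under the FPKM table's names (set 2 relative to the controls for sgUFL1) 7 of 23 collagen genes were called higher, beside 17.4% of 15175 genes, and 1 lower, beside 18.4%. Offsets left 1 higher, beside 4.9%, and 0 lower, beside 4.07%. Without controls for sgUFL1 replicate 2 there were 12 higher, beside 22.1%, and 1 lower, beside 22.9%. The collagen median was 0.42, beside -0.03 over all genes. COL18A1 was higher by 1.12 ± 0.16 SE at adjusted p = 0.000816, and with offsets by 0.38, the 1 gene still called. COL6A2, COL13A1 and COL4A2 were higher by 0.73 ± 0.12 SE at adjusted p = 0.00167, 0.65 ± 0.12 SE at adjusted p = 0.00243 and 0.57 ± 0.17 SE at adjusted p = 0.0214, and with offsets had -0.013, 0.25 and 0.10. COL5A1, COL9A2 and COL11A2 were higher by 0.43 ± 0.13 SE at adjusted p = 0.0188, 0.75 ± 0.26 SE at adjusted p = 0.0387 and 1.90 ± 0.49 SE at adjusted p = 0.0107, and each lost its call with offsets (0.007, 0.08 and 1.31). The differences without controls for sgUFL1 replicate 2 were 1.17 for COL18A1, 0.79 for COL6A2, 0.72 for COL13A1, 0.79 for COL4A2, 0.50 for COL5A1, 0.59 for COL9A2 and 1.60 for COL11A2. COL11A2 (ENSG00000204248, chr6:33162681-33192499, minus strand), a fibrillar chain of cartilage, had 0.857, 1.35 and 1.27 CPM in the sgUFM1 libraries, 1.605, 0.784 and 0.517 CPM in set 1, 1.09, 2.21 and 1.84 CPM in set 2, and 0.787, 0.243 and 0.3101 CPM in the controls for sgUFL1.

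COL12A1 was lower in set 2 than in the controls for sgUFL1, with a log2 difference of -0.46 ± 0.15 SE at adjusted p = 0.0281, and with offsets it had -0.27 and was not called, while without controls for sgUFL1 replicate 2 it had -0.60. COL7A1 had a difference of 0.08 ± 0.26 SE at adjusted p = 0.837 there and COL8A1 of -0.06 ± 0.10 SE at adjusted p = 0.684, and over all 3 libraries a group neither passed the threshold under either naming. Without controls for sgUFL1 replicate 2, COL7A1 passed it under both, at 0.60 (adjusted p = 0.00256) for set 2 and 1.53 (adjusted p = 0.0137) for set 1, and COL8A1 passed it in none of the alternatives for either set. Calls of COL4A2 also ended without controls for sgUFL1 replicate 1 or set 2 replicate 2 or 3 (adjusted p up to 0.0871), and of COL5A1 without any 1 of the set 2 libraries (up to 0.0667). Calls of COL9A2 ended without controls for sgUFL1 replicate 2 or 3 or any 1 of the set 2 libraries (up to 0.118), of COL11A2 without set 2 replicate 2 (up to 0.0639), and of COL12A1 without controls for sgUFL1 replicate 1 or 3 or set 2 replicate 2 or 3 (up to 0.133).

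The difference between the effects of both guides, each relative to its own controls, is the same under either naming, because both disputed sets enter it with the same sign. Of 25 collagen genes tested 8 were lower for sgUFM1 than for sgUFL1, beside 17.9% of 15821 genes, and 0 were higher, beside 17%. At an unadjusted p below 0.05 edgeR had 1 of the 25 higher and 13 lower, for which the share over all genes was not computed. DESeq2 called 0 of 42 higher, beside 8.48% of all genes, and 9 lower, beside 8.77%. Offsets gave 1 higher, beside 3.94%, and 3 lower, beside 5.44%. Without both libraries that stand apart 1 of 26 was higher, beside 23.3%, and 14 lower, beside 22.3%. The network chain COL8A1 had a difference of -0.88 ± 0.11 SE at adjusted p = 0.000118 and COL12A1 of -0.75 ± 0.21 SE at adjusted p = 0.0125, and with offsets -1.07 and -0.997, and without both libraries that stand apart -0.79 and -0.42. COL5A2 had -1.17 ± 0.37 SE at adjusted p = 0.0235, with offsets -1.26 and without both libraries -0.94. These 3 were the ones still called lower with offsets, and COL7A1, which had 0.95 ± 0.42 SE at adjusted p = 0.0966, was then called higher at 1.73 (0.16 to 1.73 over the 19 alternatives).

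The collagen genes are rich in GC. The median GC content of the longest transcripts was 55.3% over the 44 collagen genes, beside 49.1% over protein-coding genes, and 29 of the 44 lay above the latter value. Over all genes tested, the log2 difference of sgUFM1 relative to the controls for sgUFL1 moved with GC content, with a Spearman rank correlation of 0.52 across 15030 genes that share the same libraries. Over the 24 collagen genes it was 0.50. The same correlation over all genes was 0.75 for set 1 and 0.74 for set 2 relative to the same controls, -0.46 for sgUFM1 relative to set 2 and -0.31 relative to set 1. Over the collagen genes tested it was 0.67 and 0.65 for set 1 and set 2. For sgUFM1 relative to set 2 and set 1 the collagen genes had 0.26 and 0.36, opposite in sign to all genes. In the difference between the guides' effects it was -0.68 over all genes and 0.03 over the collagen genes. The median gene of the highest GC decile, at 63.7% GC, had a log2 difference of 0.33, and that of the lowest decile, at 36.9% GC, -0.25. Set against the middle 50% of genes in the decile nearest in GC content, 13 of the 24 collagen genes lay above, 6 below and 5 within. COL7A1 and COL6A3 were among those above, COL8A1 and COL12A1 among those below, and COL18A1, COL6A2, COL27A1, COL9A2 and COL1A1 lay within.

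**Figure D4:**
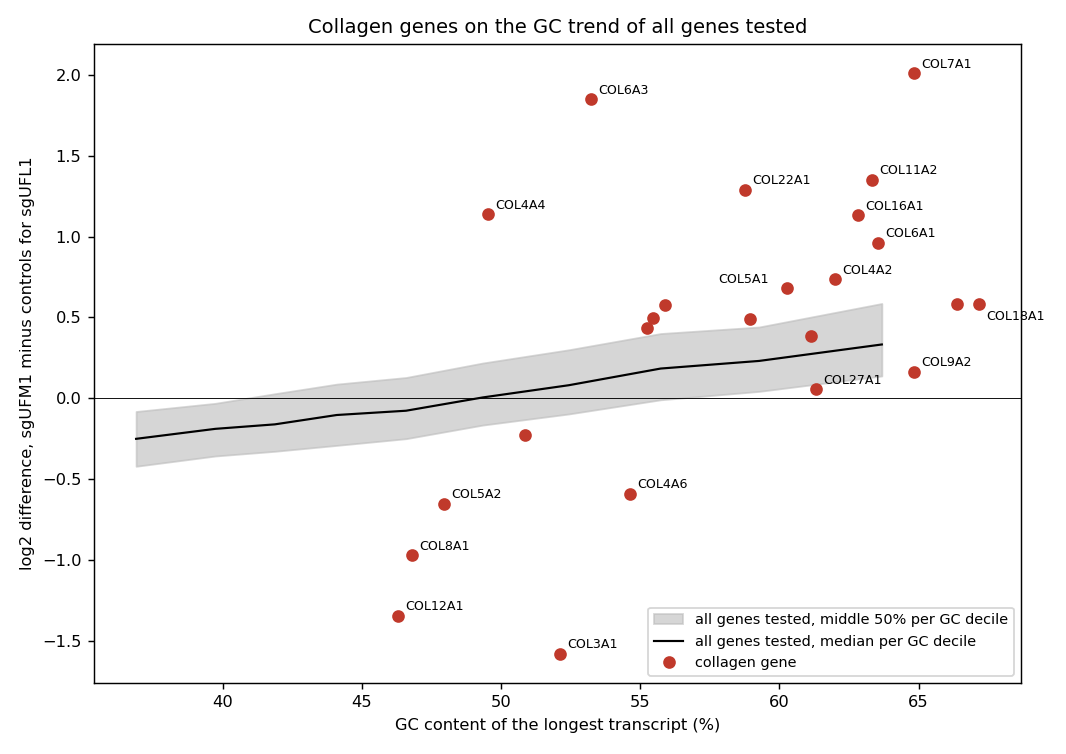
Log2 difference of each collagen gene tested (red points) between sgUFM1 and the controls for sgUFL1 against the GC content of its longest transcript, over the median (line) and middle 50% (grey band) of all genes tested in deciles of GC content. The line runs from -0.25 at 36.9% GC to 0.33 at 63.7% GC, with COL7A1 (2.01) and COL6A3 (1.85) far above the band and COL8A1 (-0.97) and COL12A1 (-1.35) below it.

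Genes that act on collagens were read in sgUFM1 relative to the controls for sgUFL1, where 5.57% of all genes tested were called higher and 4.43% lower, with a median log2 difference of -0.00, and 4.33% were higher with offsets. Of 17 tested genes for collagen biosynthesis and modification 4 were called, all higher, with a median log2 difference of 0.34, and 4 were higher with offsets. The lysyl hydroxylase PLOD1 had 127, 132 and 125 CPM in the sgUFM1 libraries, against 81.1, 88.99 and 64.9 CPM in the controls for sgUFL1, a log2 difference of 0.71 ± 0.12 SE at adjusted p = 0.0056. The prolyl hydroxylase subunit P4HA2 had 50.6, 46.96 and 46.5 CPM in the sgUFM1 libraries, against 33.6, 32.7 and 29.3 CPM in the controls for sgUFL1, a log2 difference of 0.59 ± 0.11 SE at adjusted p = 0.00934, and the prolyl isomerase PPIB had 158, 148 and 157 CPM in the sgUFM1 libraries, against 77.97, 128 and 80.3 CPM in the controls for sgUFL1, a log2 difference of 0.69 ± 0.16 SE at adjusted p = 0.023. The P4HA2 call ended without sgUFM1 replicate 1 or 2, and that of PPIB without controls for sgUFL1 replicate 1 or 3 or any 1 sgUFM1 library (adjusted p up to 0.0699 and 0.092). Of 10 tested genes for export of large cargo from the endoplasmic reticulum 2 were called, both higher, with a median of 0.02, and 2 were higher with offsets. SEC24D, a cargo-binding coat protein whose loss impairs procollagen export, had 103, 97.97 and 97.98 CPM in the sgUFM1 libraries, 44.3, 49.4 and 49.3 CPM in set 1, 50.6, 48.9 and 43.7 CPM in set 2, and 56.4, 62.8 and 61.8 CPM in the controls for sgUFL1, which put every sgUFM1 library above all others. Its log2 difference was 0.72 ± 0.10 SE at adjusted p = 0.00189 and held under the 13 alternatives, with 0.75 without controls for sgUFL1 replicate 2. The coat protein SEC13 had 158, 147 and 149.8 CPM in the sgUFM1 libraries, against 111, 122 and 98.8 CPM in the controls for sgUFL1, a log2 difference of 0.46 ± 0.11 SE at adjusted p = 0.021 that ended without controls for sgUFL1 replicate 1 or any 1 sgUFM1 library (adjusted p up to 0.124). The differences without controls for sgUFL1 replicate 2 were 0.81 for PLOD1, 0.61 for P4HA2, 0.96 for PPIB and 0.53 for SEC13. Relative to set 2 and set 1, sgUFM1 had differences of 0.16 and 0.28 in PLOD1, which edgeR called in neither. P4HA2 had 0.08 and 0.48 and was called only relative to set 1. PPIB had 0.33 and 0.40 and SEC13 0.19 and 0.18, each called only relative to set 2. SEC24D had 1.07 and 1.06 and was called relative to both sets.

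Of 4 tested genes for propeptide cleavage 2 were higher, with a median of 0.32. The procollagen C-proteinase BMP1 had a log2 difference of 0.74 ± 0.18 SE at adjusted p = 0.0272 and its enhancer PCOLCE of 0.73 ± 0.20 SE at adjusted p = 0.0358, and both calls ended with offsets and without controls for sgUFL1 replicate 1 or any 1 sgUFM1 library, that of PCOLCE also without controls replicate 3 (adjusted p up to 0.133 and 0.151). Of 5 lysyl oxidase genes for crosslinking 0 were called by edgeR, with a median of 0.25, and 1 (LOXL2, unadjusted p = 0.0122, adjusted p = 0.0798) had an unadjusted p below 0.05, while DESeq2 called 1 (LOXL2, adjusted p = 0.0418, with 0.0126 to 0.433 over the alternatives). Of 7 tested collagen receptors 4 were called, all higher, with a median of 0.59, and 2 were higher with offsets. The integrin chain ITGA2 had 364, 396 and 366 CPM in the sgUFM1 libraries, against 196, 279 and 215 CPM in the controls for sgUFL1, a log2 difference of 0.70 ± 0.13 SE at adjusted p = 0.00737 that held under the 13 alternatives. The receptor kinase DDR1 had a log2 difference of 0.74 ± 0.17 SE at adjusted p = 0.0206, which ended with offsets and without controls for sgUFL1 replicate 1 or sgUFM1 replicate 1 or 3, and the integrin chain ITGA10 of 0.59 ± 0.16 SE at adjusted p = 0.0336, which ended without controls for sgUFL1 replicate 1 or 3 or any 1 sgUFM1 library (adjusted p up to 0.114 and 0.156). The differences without controls for sgUFL1 replicate 2 were 0.85 for BMP1, 0.85 for PCOLCE, 0.87 for ITGA2, 0.97 for DDR1 and 0.60 for ITGA10. Relative to set 2 and set 1, sgUFM1 had differences of 0.23 and 0.11 in BMP1 and -0.17 and 0.07 in DDR1, which edgeR called in neither. PCOLCE had 0.36 and 0.39 and ITGA10 0.50 and 0.46, each called only relative to set 2. ITGA2 had 0.83 and 0.77 and was called relative to both sets.

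Of 5 tested genes for collagen-cutting proteases 1 was higher and 1 lower, with a median of 0.17 and -0.09 with offsets. The interstitial collagenase MMP1 had 993, 1029 and 1100.4 CPM in the sgUFM1 libraries, 6257, 6039.7 and 5880.5 CPM in set 1, 1639, 1803 and 1814 CPM in set 2, and 6783, 6361 and 7407 CPM in the controls for sgUFL1. Both sgUFM1 and set 2 lay far below set 1 and the controls for sgUFL1, and the log2 difference of sgUFM1 relative to those controls was -2.72 ± 0.12 SE at adjusted p = 5.35e-08, which held under the 13 alternatives, with -2.77 without controls for sgUFL1 replicate 2. The membrane protease MMP14 had 835, 782 and 775 CPM in the sgUFM1 libraries, 319, 677 and 670.2 CPM in set 1, 451, 531 and 479 CPM in set 2, and 275, 542 and 213 CPM in the controls for sgUFL1, with set 1 replicate 1 and controls for sgUFL1 replicate 2 again apart from their groups. Its log2 difference was 1.21 ± 0.25 SE at adjusted p = 0.0127 and the call ended without controls for sgUFL1 replicate 1 (adjusted p up to 0.0679), with 1.71 without their replicate 2. Of 9 tested genes of the epithelial anchoring structures that anchoring fibrils attach to 4 were called, all higher, with a median of 0.44, and 1 was higher with offsets. The linker PLEC had a log2 difference of 0.79 ± 0.15 SE at adjusted p = 0.00947 and overlapped both sets. The tetraspanin CD151 had 241, 212 and 217 CPM in the sgUFM1 libraries, 243, 263 and 258 CPM in set 1, 257, 313 and 300.4 CPM in set 2, and 177, 173 and 137 CPM in the controls for sgUFL1, so its sgUFM1 libraries lay above the controls for sgUFL1 and below both sets. Its log2 difference was 0.46 ± 0.12 SE at adjusted p = 0.0313 relative to those controls and -0.37 ± 0.07 SE at adjusted p = 0.000538 relative to set 2, where sgUFM1 was thus lower. Without controls for sgUFL1 replicate 2 the differences relative to these controls were 0.94 for PLEC and 0.51 for CD151. Both calls relative to them ended with offsets, that of PLEC also without sgUFM1 replicate 1 and that of CD151 without controls for sgUFL1 replicate 1 or any 1 sgUFM1 library (adjusted p up to 0.0742 and 0.221).

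Markers of other cells were read because collagens are abundant in stroma. The 9 fibroblast markers summed to 13.9 to 15.2 CPM in the sgUFM1 libraries, 10.6 to 12.1 CPM in set 1, 10.2 to 11.5 CPM in set 2 and 7.81 to 9.86 CPM in the controls for sgUFL1, so the sum was highest in the libraries where COL7A1 was highest, and its part in the collagen differences was not tested. Of the 9, 4 were at 0 counts in all sgUFM1 libraries, 5 in set 1, 4 in set 2 and 3 in the controls for sgUFL1. The markers DCN, LUM and POSTN were at 0 in every sgUFM1 library and at most 0.242 CPM in any library. PDGFRA was detected only in sgUFM1 replicates 1 and 3, at 0.0612 and 0.254 CPM. FAP and THY1 were at most 0.257 CPM. FBLN1 had 5.20, 6.37 and 5.58 CPM in the sgUFM1 libraries, 3.58, 7.18 and 6.01 CPM in set 1 and 2.73, 1.98 and 2.91 CPM in set 2. It had 3.57, 4.69 and 4.03 CPM in the controls for sgUFL1. FBLN1 was called higher by edgeR relative to set 2 (1.18) and not relative to those controls (0.48). The 5 endothelial markers summed to 2.98 to 3.49 CPM in the sgUFM1 libraries, 3.36 to 6.60 CPM in set 1, 6.35 to 6.96 CPM in set 2 and 4.44 to 9.18 CPM in the controls for sgUFL1, with 1 of them at 0 counts in set 1 and 1 in the controls for sgUFL1. Relative to the controls for sgUFL1, the pericyte and fibroblast receptor PDGFRB had a log2 difference of 0.93 ± 0.20 SE at adjusted p = 0.0139. The endothelial receptor KDR had -1.27 ± 0.29 SE at adjusted p = 0.0184 there. Without controls for sgUFL1 replicate 2 these were 1.02 and -1.51. PDGFRB had 8.32, 8.56 and 8.87 CPM in the sgUFM1 libraries and 6.73, 4.90 and 5.56 CPM in set 1. It had 7.44, 8.05 and 8.36 CPM in set 2 and 3.75, 4.99 and 4.71 CPM in the controls for sgUFL1. By edgeR it was called relative to neither set 2 (0.12, adjusted p = 0.539) nor set 1 (0.58, adjusted p = 0.0582). KDR was called lower relative to set 2 (-0.98, adjusted p = 0.000931) and not relative to set 1 (-0.64). The 5 leukocyte markers summed to at most 4.31 CPM in any library. The line's own markers were present, with VIM at 754 to 1067 CPM. Among luminal genes, ESR1 and CDH1 were at most 0.744 CPM and PGR at most 1.16 CPM, while the keratin KRT8 had 297 to 581 CPM. KRT8 had log2 differences in sgUFM1 of -0.04 relative to the controls for sgUFL1, -0.60 relative to set 2 and -0.42 relative to set 1. It was called lower by edgeR relative to both sets.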

How the data were processed

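Total RNA of MDA-MB-231 cells was sequenced in 12 libraries, 3 in each of 4 groups. The authors deposited whole-number counts per gene and FPKM values per gene in separate tables. The tools named in the submitters' processing notes are featureCounts 2.0.0, STAR 2.7.7a and fastp 0.20.1. The counting strand is not given in the sources used here. The deposited FPKM values were used to match columns between the tables, over 12320 genes with at least 20 counts, and in no test. The authors' deposited counts were the base of all other values.

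Counts were tested across all genes with edgeR 4.0.16 (R 4.3.3, limma 3.58.1), using filterByExpr, TMM scaling and the quasi-likelihood test, with p-values adjusted by Benjamini-Hochberg over all genes tested and a threshold of 0.05. Each comparison was fitted on its own groups, and the difference between the guides' effects on all 12 libraries. CPM per kilobase used the annotated gene length. Offsets for GC content and gene length were lowess trends with a span of 0.3. Alternatives were RLE scaling, no filter on low counts, DESeq2 1.42.0, 1 model over 12 libraries, the offsets, a replicate block, and leaving out each library. The statistics were tested on simulated data. Replicates of a group differed by more than sampling noise (chi-square per gene of 2.41 to 34.9), so none was merged.

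The collagen genes, the lists of other genes and the tests were chosen with earlier results of these data known. All collagen genes called in at least 1 comparison, with COL7A1, COL8A1 and COL5A1, are given in full, and up to 3 genes of each other list by smallest p. A result for 1 of the latter is not reported here. The promoter windows came from RefSeq and the gene coordinates, on GRCh38, from the annotation.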

Additional observations from a re-analysis of the deposited data

Results flagged for a closer look

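The effects of the 2 guides, each relative to its own controls, were compared by edgeR's quasi-likelihood test of the difference itself, adjusted over all genes. Of 25 collagen genes tested, 8 were lower for sgUFM1 than for sgUFL1, beside 17.9% of 15821 genes, and 0 were higher, beside 17%. Offsets gave 3 lower, beside 5.44%, and 1 higher, beside 3.94%. Values are log2 differences between the effect of sgUFM1 and that of sgUFL1, and they are the same under either naming of the exchanged libraries. The network chain COL8A1 had -0.88 (SE 0.11, adjusted p = 0.000118) and the FACIT COL12A1 -0.75 (SE 0.21, adjusted p = 0.0125), and both held under all 19 alternatives. The fibrillar chain COL5A2 had -1.17 (SE 0.37, adjusted p = 0.0235), which ended in 5 alternatives, and the fibrillar chain COL27A1 -0.83 (SE 0.20, adjusted p = 0.00524). The type VI chain COL6A2 had -0.73 (SE 0.16, adjusted p = 0.00264), the transmembrane COL13A1 -0.66 (SE 0.16, adjusted p = 0.00472) and the multiplexin COL18A1 -1.38 (SE 0.20, adjusted p = 0.000315). The calls of COL27A1, COL6A2, COL13A1 and COL18A1 ended with the offsets for GC and length. The type IV chain COL4A6 had -0.85 (SE 0.30, adjusted p = 0.0372), which ended in 12 alternatives. Without set 1 replicate 1 and controls for sgUFL1 replicate 2 all 8 were still called, with -0.79 for COL8A1, -0.42 for COL12A1, -0.94 for COL5A2, -0.86 for COL27A1, -0.81 for COL6A2, -0.74 for COL13A1, -1.32 for COL18A1 and -1.12 for COL4A6.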

How the results depend on the processing

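The 62 called gene differences had 854 values under alternatives, of which 654 kept their direction and stayed past the threshold, 196 kept their direction only and 4 reversed. Of 197 values of the 14 differences not called, 21 passed the threshold and 11 reversed. Shares below are of all genes tested, called in the direction of the count beside them. With the GC and length offsets, 4 collagen genes were higher for sgUFM1 relative to the controls for sgUFL1, beside 4.33%. Relative to set 2 there were 10, beside 16.2%. For set 2 relative to the controls for sgUFL1, 1 was higher, beside 4.9%, and 0 lower, beside 4.07%. In the difference between the guides' effects 1 was higher, beside 3.94%, and 3 lower, beside 5.44%. The model over 12 libraries gave 2 higher for sgUFM1 relative to set 2, beside 9.46%, and 1 relative to set 1, beside 2.78%. For set 1 relative to the controls for sgUFL1 it gave 10 higher, beside 12.6%. There DESeq2 gave 6 of 39, beside 4.18%, and no filter 9 of 39, beside 5.09%. No filter gave 1 of 42 higher in the difference between the guides' effects, beside 7.61%. Leaving out both libraries that stand apart was an alternative chosen after seeing the data. It gave 13 higher, beside 18.6%, and 1 lower, beside 13.4%, for set 1 relative to the controls for sgUFL1. In the difference between the guides' effects it gave 1 higher, beside 23.3%, and 14 lower, beside 22.3%.

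Leaving out 1 library at a time gave 1 to 13 higher for sgUFM1 relative to the controls for sgUFL1, beside 1.07% to 14.2%. Relative to set 2 it gave 4 to 8 higher, beside 13.6% to 20.7%, and 6 to 9 lower, beside 13.4% to 21.6%. Relative to set 1 it gave 0 to 3 higher, beside 0.403% to 12%, and 2 to 7 lower, beside 0.364% to 14.6%. Relative to the controls for sgUFL1, set 1 had 0 to 10 higher, beside 0% to 10.6%. Set 2 had 3 to 12 higher, beside 8.88% to 22.1%, and 0 to 1 lower, beside 7.14% to 22.9%. The difference between the guides' effects had 0 to 2 higher, beside 12.1% to 18.8%, and 6 to 11 lower, beside 12.6% to 20.2%.

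Same-numbered libraries did not deviate together in every pair of any comparison (r of -0.21 to 0.38). These few correlations cannot settle whether the numbers pair the libraries, so fits without and with a replicate block are given. With the replicate block, sgUFM1 relative to the controls for sgUFL1 had 10 collagen genes higher, beside 7.27%, and 2 lower, beside 5.15%. Relative to set 2 it had 6 higher, beside 16.5%, and 8 lower, beside 16%. Relative to set 1 it had 1 higher, beside 3.19%, and 3 lower, beside 3.34%. Relative to the controls for sgUFL1 the block gave 0 higher and 0 lower for set 1, beside 0% and 0%. For set 2 it gave 10 higher, beside 18.8%, and 1 lower, beside 18.6%. The difference between the guides' effects had 0 higher, beside 17.8%, and 10 lower, beside 18.8%. The block with offsets gave 4 higher for sgUFM1 relative to the controls for sgUFL1, beside 4.59%. It gave 5 lower relative to set 2, beside 16.1%, and 1 higher relative to set 1, beside 3.43%. For set 2 relative to the controls for sgUFL1 it gave 0 higher, beside 5.2%, and 0 lower, beside 3.7%. In the difference between the guides' effects it gave 1 higher, beside 4.59%, and 2 lower, beside 6.22%. COL4A4 was not called with the block relative to the controls for sgUFL1 (adjusted p = 0.0523) or to set 1 (adjusted p = 0.0574). With block and offsets, COL18A1 was not called in sgUFM1 relative to set 2 (adjusted p = 0.0592) or in set 2 relative to the controls for sgUFL1 (adjusted p = 0.0587), nor COL4A4 relative to set 2 (adjusted p = 0.0519), COL5A2 in the difference between the guides' effects (adjusted p = 0.0506) or ITGA10 relative to the controls for sgUFL1 (adjusted p = 0.0684). The block alone ended no other call of a named gene by edgeR.

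Reversed values were as follows. In the difference between the guides' effects COL5A1 had 0.20 with offsets and 0.19 with block and offsets, and COL6A2 0.28 and 0.28. For set 2 relative to the controls for sgUFL1, COL6A2 had -0.0126 and -0.013, COL8A1 0.0938 and 0.0924, and COL7A1 -0.54 and -0.44, with -0.18 to 0.60 when 1 library at a time was left out (-0.05 and -0.18 without controls for sgUFL1 replicates 1 and 3). For set 1 relative to the same controls COL8A1 had 0.0547 and 0.055. MMP2, not called for sgUFM1 relative to the controls for sgUFL1, had -0.69 to 0.0379 when 1 library was left out, the last without sgUFM1 replicate 3. The cause was not tested in any of these. The 19 collagen genes at 61 counts or fewer in all did not pass the filter on low counts, and fits without that filter tested 37 to 42 collagen genes in a comparison.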

Other observations

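The 8 annotated noncoding genes with collagen symbols had 0 to 6 counts in each library. COL4A2-AS2 had 6 counts in set 1 replicate 1 and 0 in every other library, and COL18A1-AS2 and COL11A2P1 had 0 in all 12 libraries.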
